A study of Mus musculus with 2 samples.

Results

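The 9 genes described here encode hormones secreted by adipocytes and receptors for adiponectin and leptin. They are adiponectin (Adipoq), leptin (Lep), resistin (Retn), chemerin (Rarres2), apelin (Apln) and angiotensinogen (Agt), the adiponectin receptors Adipor1 and Adipor2, and the leptin receptor Lepr. They were chosen by name and function, and Agt also by its much higher level at D7, so the ratios between stages are given as a description and without a test. All 9 symbols were found in the table of 23361 genes with values, each in a single row.

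RNA-Seq was run on 2 libraries, 1 of brown preadipocytes taken at day 0 (D0) and 1 of brown adipocytes at day 7 (D7). The cells came from interscapular brown adipose tissue of newborn C57BL/6 mice (C57BL/6J in the paper) and were grown with 20% fetal bovine serum. From 4 days before induction, both groups were kept in medium that held 10% serum, insulin at 0.1 μM and T3 at 1 nM. The D7 group was induced at day 0 with indomethacin at 0.125 mM, IBMX at 0.5 mM and dexamethasone at 2 μg/ml, and then returned to the medium with insulin and T3. The sample labels and the results of the paper call the sequenced cells primary cultures, whereas the methods of the paper describe preadipocytes immortalized with large T antigen, taken from pups of either sex and induced with other concentrations of insulin and dexamethasone. Whether the pups were pooled is not stated, and how far cultures of the same stage vary is unknown.

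Adipokines are the hormones through which fat cells act on liver, muscle, brain and vessels. Adiponectin circulates as trimers and larger complexes and raises insulin sensitivity through AdipoR1 and AdipoR2, leptin reports fat stores to the hypothalamus through LepR, and angiotensinogen is cut by renin and angiotensin-converting enzyme to angiotensin II. Brown adipocytes secrete adiponectin but are known for far less leptin than white adipocytes.

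Levels are FPKM, the fragments of a transcript scaled to its length and to the reads of the library, so genes can be set side by side within a library. The fragments behind a value were recovered from single-exon genes, and the libraries were scaled to 21470000 (D0) and 18270000 (D7) fragments. The brackets after a ratio hold its 95% interval by the exact Clopper-Pearson method, computed on fragments, which covers counting error only and does not stand in for replicates. A count of 0 allows up to 3 fragments. Every adipocyte marker of a list of 11 (Fabp4, Plin1, Pparg and others) was at least 2.0-fold higher at D7, and their summed FPKM was 97.4 at D0 and 19273 at D7. Of 7 brown adipocyte markers, 3 were higher and 4 (Ucp1, Cidea, Elovl3 and Cox8b) were listed at 0 at D0 only. The summed FPKM of the 7 was 8.37 at D0 and 711 at D7, where Cox7a1 had 389 and Cox8b 253. Within the D7 library the others stood below Cox7a1 and Cox8b, with Ucp1 at 4.57, Ppargc1a at 4.41, Dio2 at 2.11, Cidea at 24.4 and Elovl3 at 34.2. In these bulk libraries, a larger share of cells of a type and more RNA per cell cannot be told apart.

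Promoter sequences of 8 of the 9 genes were found in the RefSeq promoters of GRCm38.p6 (mm10), all but that of Rarres2. Each window ran from 250 bases before the start of transcription to 50 bases after it, and Adipor1 and Lepr had 2 windows each, so 10 windows were searched on both strands. The 250 upstream bases of Lep and Agt are shown because they hold the only motif matches before a start site, in capitals. In Lep the capitals are TTGCGCAA, a match to the C/EBP motif TTGCNNAA on both strands that begins 55 bases before the start. In Agt they are the TATA box TATAAA, which begins 30 bases before the start.
Lep (chr6:29059971-29060220, plus strand): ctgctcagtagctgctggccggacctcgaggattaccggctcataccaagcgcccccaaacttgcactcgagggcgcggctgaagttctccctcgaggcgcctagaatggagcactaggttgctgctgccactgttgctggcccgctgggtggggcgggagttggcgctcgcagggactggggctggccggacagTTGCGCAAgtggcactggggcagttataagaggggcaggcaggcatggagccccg
Agt (chr8:124569707-124569956, minus strand): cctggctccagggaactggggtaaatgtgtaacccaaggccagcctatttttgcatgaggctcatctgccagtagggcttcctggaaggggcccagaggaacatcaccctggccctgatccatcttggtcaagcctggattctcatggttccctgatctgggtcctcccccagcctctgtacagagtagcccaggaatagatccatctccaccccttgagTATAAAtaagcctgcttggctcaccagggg
The C/EBP motif was present in 2 of the 10 windows, the other being the Lepr window in which TTCTGCAA begins 20 bases after the start, and in 10.8% of all 32851 windows. TATAAA was present in 1 of the 10 and in 13.6% of all. The hexamer AGGTCA, which nuclear receptors such as PPARγ bind in pairs, was in 0 of the 10 and in 16.3% of all, and 2 of them in direct repeat with 1 base between were in 0 of the 10 and 0.0396% of all. A match is only a string of letters, and its absence from a window says nothing about a factor.

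The upstream bases of Adipoq and Adipor2 are shown for their CpG dinucleotides, in capitals, since these windows lie near the extremes among the 8 genes with windows. On the minus strand, Adipor2 begins at its high coordinate, 119417704, so its window lies inside the gene, upstream of an internal start.
Adipoq (chr16:23146286-23146535, plus strand): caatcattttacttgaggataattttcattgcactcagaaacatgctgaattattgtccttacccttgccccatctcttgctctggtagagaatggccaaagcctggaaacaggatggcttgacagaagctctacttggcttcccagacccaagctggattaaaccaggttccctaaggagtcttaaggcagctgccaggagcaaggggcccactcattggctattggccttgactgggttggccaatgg
Adipor2 (chr6:119388735-119388984, minus strand): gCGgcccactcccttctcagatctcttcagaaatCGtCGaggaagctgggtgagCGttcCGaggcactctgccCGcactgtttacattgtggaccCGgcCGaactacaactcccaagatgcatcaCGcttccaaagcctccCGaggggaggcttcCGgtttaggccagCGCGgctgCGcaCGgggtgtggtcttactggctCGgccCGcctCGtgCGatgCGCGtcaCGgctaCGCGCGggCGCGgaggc
Adipoq and Agt each held 0 CpG in the 250 upstream bases and Retn held 2, whereas Adipor2 held 27, Lep 16 and Apln 12. The windows of Adipor1 held 15 and 33 CpG and those of Lepr 10 and 10. Over all windows the median was 6, with quartiles of 2 and 16, and 7.87% held none. The 3 genes with 2 CpG or fewer were thus the 3 secreted genes with the highest FPKM at D7, a description of 8 genes without a test, and 29.0% of all windows held so few.

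Of the 9 genes, 7 were at least 2.0-fold higher at D7, 0 were lower by that ratio, Adipor1 lay between, and Lep was listed at 0 at D0. Over the 14986 genes above 0 in both libraries, 18.5% were at least 2.0-fold higher at D7 and 13.2% lower. The rule that chose the genes used this contrast, so nothing is read from the difference. The median log2 ratio of the 8 genes with a ratio was 3.86, against 0.02 over all genes. The ratios ran from 1.07 in Adipor1 to 12254 in Retn.

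**Figure D1:**
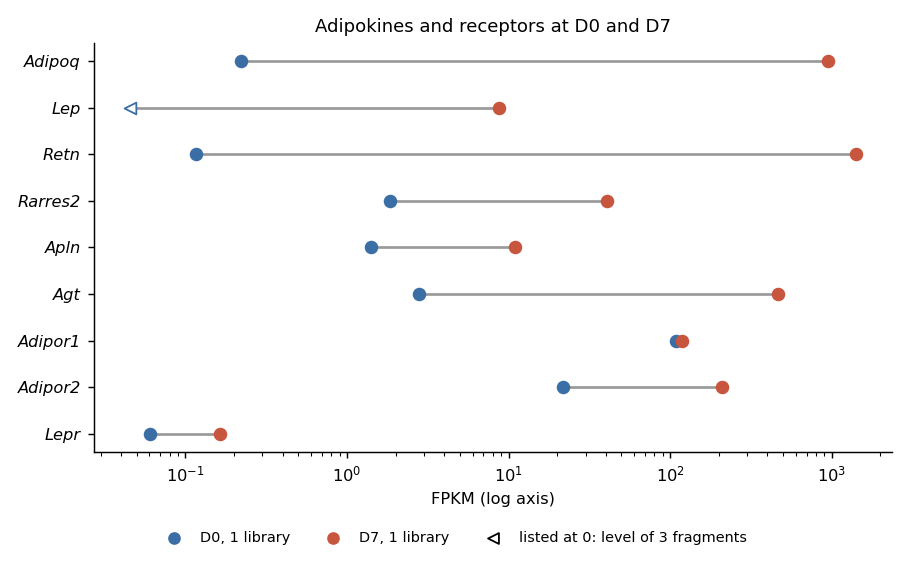
FPKM of the 9 genes on a log axis, with 1 point for the D0 library (blue) and 1 for the D7 library (red), and the open triangle at the level of 3 fragments for Lep, which was listed at 0 at D0. The 6 secreted genes sit at or below 2.78 at D0 and at or above 8.74 at D7, while the points of Adipor1 nearly coincide.

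**Figure D2:**
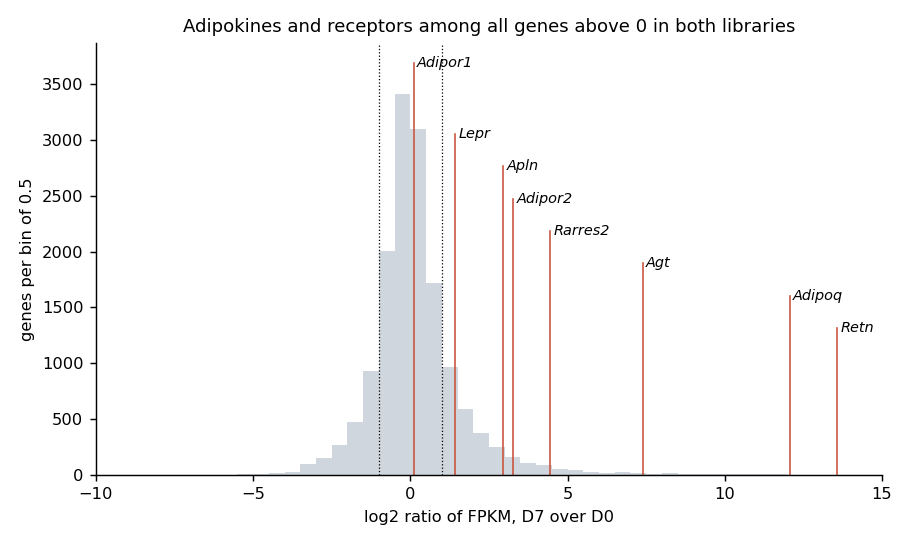
Number of genes (vertical axis) by log2 ratio of FPKM, D7 over D0 (horizontal axis, bins of 0.5), for the 14986 genes above 0 in both libraries, with red lines at the 8 genes that have a ratio and dotted lines at 2.0-fold. The heights of the red lines only keep the names apart. Adipor1 lies at 0.10 inside the central peak, and Adipoq (12.06) and Retn (13.58) lie at the far right end.

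Among the secreted genes, the level at D0 was low throughout. The 6 secreted genes together had a summed FPKM of 6.38 at D0 and 2886 at D7, or 0.00124% and 0.553% of the summed FPKM of all genes. Their levels at D7 were unequal, with the highest 162 times the lowest.

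Resistin is a small cysteine-rich hormone made mainly by adipocytes in mice and linked to insulin resistance. Retn (ENSMUSG00000012705.16, chromosome 8, 3655770 to 3660110, plus strand, 5 exons in the transcript named in the table) measured 0.116 FPKM at D0 (about 2 fragments) against 1416 at D7 (about 17908). Its ratio was 12254 (2925 to 87269), and no other gene above 0 in both libraries had a larger one, although the interval overlapped that of the adipocyte marker Plin1, which had a ratio of 5848 (1672 to 49897). With a pseudocount of 1 the ratio of Retn was 1271, since the value at D0 rests on so few fragments. By level it stood at place 13636 of 23361 at D0 and at place 30 at D7. Retn alone made up 49.1% of the summed FPKM of the secreted genes at D7.

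Adiponectin is the C1q-domain hormone that marks mature fat cells. Adipoq (ENSMUSG00000022878.5, chromosome 16, 23146536 to 23158028, plus strand, 3 exons) measured 0.221 FPKM at D0 (about 5 fragments) against 943 at D7 (about 19121). The ratio was 4263 (1931 to 13879.6), and 3 genes had a larger one. With a pseudocount of 1 it was 773. It moved from place 12974 to place 59 by level. The wide intervals of Retn and Adipoq come from the few fragments at D0.

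Angiotensinogen, best known as a liver product, is also made by fat. Agt (ENSMUSG00000031980.9, chromosome 8, 124556534 to 124569706, minus strand, 5 exons) measured 2.78 FPKM at D0 (about 102 fragments) against 467 at D7 (about 14573). The ratio was 168 (138 to 206), and 55 genes had a larger one. With 102 fragments at D0, its ratio is known more closely than those of Retn and Adipoq as far as counting goes. Its place by level went from 9589 to 185. Of the hepatocyte markers, Alb, Ttr and Serpina1a were listed at 0 in both libraries and Apoa1 rested on about 1 and 3 fragments, while Apoc3 was listed at 0 in the D0 library and reached 33.9 FPKM at D7.

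Chemerin is a chemoattractant and adipokine that becomes active once proteases trim its end. Rarres2 (ENSMUSG00000009281.6, chromosome 6, 48569696 to 48572789, minus strand, 6 exons) measured 1.85 FPKM at D0 against 40.5 at D7, on about 24 and 454 fragments. The ratio was 21.9 (14.8 to 35.2). Rarres2 overlaps Lrrc61 on the opposite strand, and the table gives both genes 1 shared locus. The library preparation kept strand, but whether the counting used it is not given in the sources used here, so reads of the overlap cannot be assigned with certainty. Lrrc61 itself measured 2.72 FPKM at D0 (about 160 fragments) against 5.93 at D7 (about 296). It was above Rarres2 at D0 and below it at D7, and its part in the D0 value of Rarres2, on which the ratio rests, was not tested. With a pseudocount of 1 the ratio of Rarres2 was 14.6.

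Apelin is a peptide that acts on vessels and the heart and is secreted by fat under insulin. Apln (ENSMUSG00000037010.7, chromosome X, 48025146 to 48034853, minus strand, 3 exons) measured 1.41 FPKM at D0 against 10.9 at D7, on about 90 and 591 fragments. The ratio of 7.73 (6.18 to 9.75) was the smallest among the secreted genes that have a ratio, and it was 4.94 with a pseudocount of 1.

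Leptin is the satiety hormone of white fat. Lep (ENSMUSG00000059201.12, chromosome 6, 29060220 to 29073877, plus strand, 3 exons) was listed at 0 in the D0 library and reached 8.74 FPKM at D7, about 491 fragments. Against a limit of 3 fragments at D0, worth 0.0454 FPKM, Lep was at least 192.68-fold higher at D7, and the low end of the exact interval, which also takes in the counting error at D7, was 156. Even so, it had the lowest level of the 6 secreted genes at D7, at place 6678 of 23361. By level at D7 the order was Retn, Adipoq, Agt, Rarres2, Apln and Lep. With 1 library per stage, no spread is available to say which neighbours in this order differ.

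The receptors did not share a pattern. AdipoR1 and AdipoR2 are related membrane receptors with an intracellular amino end, the former tied mostly to AMP-activated kinase and the latter to PPARα. Adipor1 (ENSMUSG00000026457.14, chromosome 1, 134415378 to 134433351, plus strand, 8 exons) measured 109 FPKM at D0 against 118 at D7, which gave a ratio of 1.07 (1.04 to 1.11) on about 6920 and 6322 fragments. Its place by level was 736 at D0 and 739 at D7. This small ratio kept its direction under 8 of 9 settings. It was 0.842 after a floor of 0.01 and division by the library median, a combination chosen after seeing the data.

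Adipor2 (ENSMUSG00000030168.13, chromosome 6, 119353150 to 119417704, minus strand, 8 exons) measured 21.7 FPKM at D0 against 210 at D7, on about 1863 and 15324 fragments. The ratio was 9.68 (9.22 to 10.2), and its place by level went from 3507 to 414. Adipor1 was 5.05 times the level of Adipor2 at D0, whereas Adipor2 was 1.78 times the level of Adipor1 at D7. The share of Adipor2 in the summed FPKM of both receptors was 16.5% at D0 and 64.0% at D7. The sum itself went from 131 to 327, a ratio of 2.50. These shares are of transcripts set side by side per length, and say nothing of protein.

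**Figure D3:**
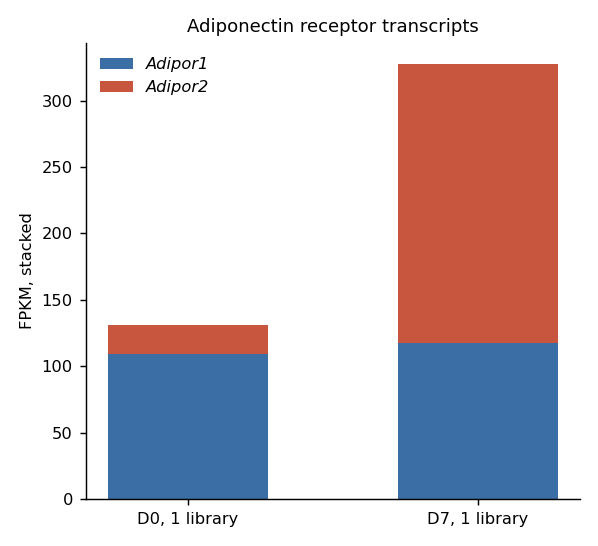
FPKM of Adipor1 (blue) and Adipor2 (red), stacked, for the D0 and the D7 library. The blue bar measures 109 and 118, whereas the red bar goes from 21.7 to 210.

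The leptin receptor was close to the limit of detection. Lepr (ENSMUSG00000057722.17, chromosome 4, 101717404 to 101815352, plus strand, 18 exons in the named transcript) measured 0.0608 FPKM at D0 against 0.164 at D7, on about 4 and 10 fragments. The ratio of 2.69 passes 2.0-fold, but its interval of 0.848 to 12.8 includes 1. With the longest transcript in place of the named one, the interval was 1.05 to 7.72, so whether a difference was detectable at this depth depended on the transcript length assumed. The table gives 1 value per gene, so the long signalling isoform and the short isoforms were not told apart. Lep and Lepr were thus the secreted gene and the receptor with the lowest FPKM at D7.

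Genes around the 9 were described through lists of other adipokines, relatives of adiponectin and of its receptors, receptors, processing enzymes and signalling genes, and of these 107 had values. Of the 90 above 0 in both libraries, 25 were at least 2.0-fold higher at D7 and 17 lower, against the 18.5% and 13.2% over all genes, and 48 lay between. A further 7 were listed at 0 at D0 only and 10 in both libraries. The same shares over all genes apply to the counts of each list below, and nothing is read from those counts.

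Of 13 genes of adiponectin assembly and signalling, 5 were higher by at least 2.0-fold, 0 lower and 8 between. The shares over all genes above 0 in both libraries were 18.5% higher and 13.2% lower. The median log2 ratio of the list was 0.83, against 0.02 over all genes. Adiponectin multimers are put together in the endoplasmic reticulum with the help of Ero1l and Gstk1 (DsbA-L), while Erp44 retains them. Ero1l measured 36.8 FPKM at D0 against 110 at D7, which gave a ratio of 2.97 (2.86 to 3.10). Gstk1 had 17.4 and 37.6, a ratio of 2.16 (1.87 to 2.51). Erp44 had 39.7 and 32.7, a ratio of 0.824, and so differed in direction from the other assembly genes. T-cadherin (Cdh13), which binds adiponectin multimers at the cell surface, measured 3.07 FPKM at D0 against 8.57 at D7, which gave a ratio of 2.79 (2.40 to 3.27). Of the kinase subunits downstream of AdipoR1, Prkaa2 had 0.238 and 3.90, a ratio of 16.4 (11.8 to 23.1), whereas Prkaa1 had 12.6 and 15.9, a ratio of 1.26, and stayed the more abundant of the pair. Ppara, placed downstream of AdipoR2, went from 0.219 to 4.11 FPKM, a ratio of 18.8 (11.3 to 34.4). The adaptors Appl1 and Appl2 had ratios of 1.18 and 1.91.

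The other members of the PAQR family, to which the adiponectin receptors belong, were much less abundant. All 7 had an FPKM below that of Adipor2 in both libraries, and their summed FPKM was 16.5 at D0 and 31.1 at D7. Paqr4 measured 2.42 FPKM at D0 against 14.2 at D7, which gave a ratio of 5.86 (4.81 to 7.13). Paqr9 was listed at 0 in the D0 library and reached 5.83 FPKM at D7, which was at least 341.5-fold higher against the limit of 3 fragments, with a low end of the exact interval of 277. Paqr8 was lower, at 3.02 and then 1.32 FPKM, a ratio of 0.436 (0.352 to 0.538).

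Of 13 leptin signalling genes, 2 were higher, 1 lower and 10 between, with a median log2 ratio of 0.15. Over all genes above 0 in both libraries, 18.5% were higher and 13.2% lower. Jak2, the kinase bound to the leptin receptor, measured 9.68 FPKM at D0 against 10.7 at D7, which gave a ratio of 1.11. Stat5a, a transcription factor used by leptin and by many other cytokines, had 4.58 and 13.1, a ratio of 2.85 (2.53 to 3.24). Of the other STAT genes in the list, Stat3 had 87.3 and 51.4, a ratio of 0.588. Stat5b had 7.05 and 12.7, a ratio of 1.80. Irs2, an adaptor shared with the insulin receptor, had 2.49 and 6.43, a ratio of 2.58 (2.26 to 2.95). Socs3, the feedback inhibitor of leptin and cytokine receptors, went from 26.3 to 7.17 FPKM, a ratio of 0.273 (0.240 to 0.309).

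Angiotensinogen was set beside 19 other renin-angiotensin genes. Of these, 6 were higher at D7, 2 lower, 10 between and 1 listed at 0 at D0. Their median log2 ratio was 0.68, against 0.02 over all genes above 0 in both libraries, of which 18.5% were higher and 13.2% lower. Renin, which makes angiotensin I, was almost absent, with Ren1 listed at 0 at D0 and at an FPKM of 0.132 at D7 on about 3 fragments. Cathepsin D (Ctsd), which can also cut angiotensinogen, measured 981 FPKM at D0 against 1779 at D7, which gave a ratio of 1.81. Angiotensin-converting enzyme (Ace) had 0.690 and 31.3, on about 33 and 1279 fragments, a ratio of 45.4 (32.3 to 66.5), the largest of the list. Mas1, a receptor of a shorter angiotensin peptide, rested on about 1 fragment in each library.

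All 3 genes of angiotensin II receptors were higher at D7. The type 2 receptor Agtr2 measured 4.27 FPKM at D0 against 32.5 at D7, which gave a ratio of 7.61 (6.71 to 8.65), and was the most abundant of the 3 in both libraries. The type 1 receptor Agtr1a had 1.33 and 5.16, a ratio of 3.88 (2.86 to 5.27). Its close copy Agtr1b had 0.0710 and 0.418 on about 3 and 15 fragments, a ratio of 5.89 (1.66 to 31.7), and reads can be split between these copies with uncertainty. Of the peptidases that trim or degrade angiotensins, Enpep had a ratio of 6.54 (4.22 to 10.4) and Mme one of 8.40 (6.69 to 10.7). The prolyl peptidases Prcp and Prep were lower, with ratios of 0.379 (0.333 to 0.428) and 0.476 (0.459 to 0.493).

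**Figure D4:**
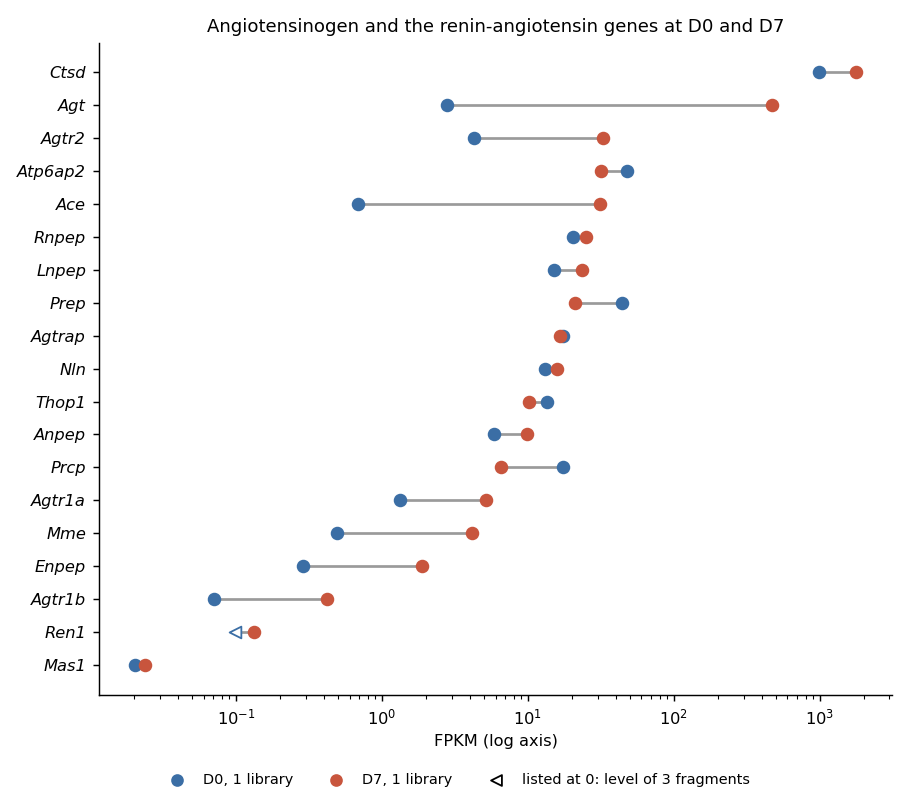
FPKM on a log axis of Agt and the renin-angiotensin genes reported here, ordered by their level at D7, with blue points for the D0 library, red for the D7 library and an open triangle at the level of 3 fragments for Ren1 at D0. Agt (2.78 and 467) and Ace (0.690 and 31.3) show the widest gaps, and Ren1 and Mas1 lie at the bottom.

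The receptors of chemerin differed in direction. Cmklr1, the signalling receptor, measured 1.71 FPKM at D0 against 3.58 at D7, which gave a ratio of 2.09 (1.63 to 2.70). Gpr1 had 1.37 and 0.154, on about 52 and 5 fragments, a ratio of 0.112 (0.0353 to 0.281), and Ccrl2, which binds chemerin without signalling, had about 11 and 1. Of the proteases in this list, the plasminogen activators Plat (0.260) and Plau (0.330) and cathepsin K (Ctsk, 0.449) had ratios below 0.5, and cathepsin S (Ctss) had one of 3.56. Cathepsin L (Ctsl), the most abundant of them in both libraries, had 402 and 386 FPKM, a ratio of 0.962. Plg, Elane, Ctsg and Klkb1 were listed at 0 in both libraries. The 13 genes in all held 2 higher, 5 lower, 1 between and 5 listed at 0 in at least 1 library. Their median log2 ratio was -1.38 over the 8 with a ratio. Among all genes above 0 in both libraries, 18.5% were higher and 13.2% lower, and the median was 0.02.

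Of the 5 genes listed for apelin (its receptor, other ligand and processing proteases), 4 lay between and 1 was listed at 0 in both libraries. The 3 proteases Furin, Pcsk5 and Pcsk7 were detected in both libraries, with ratios of 0.952, 1.29 and 0.813. The apelin receptor Aplnr rested on about 2 fragments at D0 and 1 at D7, and the receptor's other ligand Apela, found under the symbol Gm10664, was listed at 0 in both libraries. Of 6 resistin relatives and proposed receptors, 1 was higher, 2 lay between, 1 was listed at 0 at D0 only and 2 in both libraries. Beside the apelin and resistin counts stand 18.5% higher and 13.2% lower over all genes above 0 in both libraries. The relatives Retnlb and Retnlg were listed at 0 in both, while Retnla had 0 at D0 and an FPKM of 3.55 at D7 on about 27 fragments. All 3 proposed resistin receptors were detected in both libraries. Tlr4 had an FPKM of 4.01 and 10.2, a ratio of 2.54 (2.22 to 2.89), Ror1 had 2.76 and 4.66, a ratio of 1.69 (1.47 to 1.95), and Cap1 had 229 and 117, a ratio of 0.511. Cap1 thus lay just short of 0.5, and was below it under 2 of the other scalings.

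**Figure D5:**
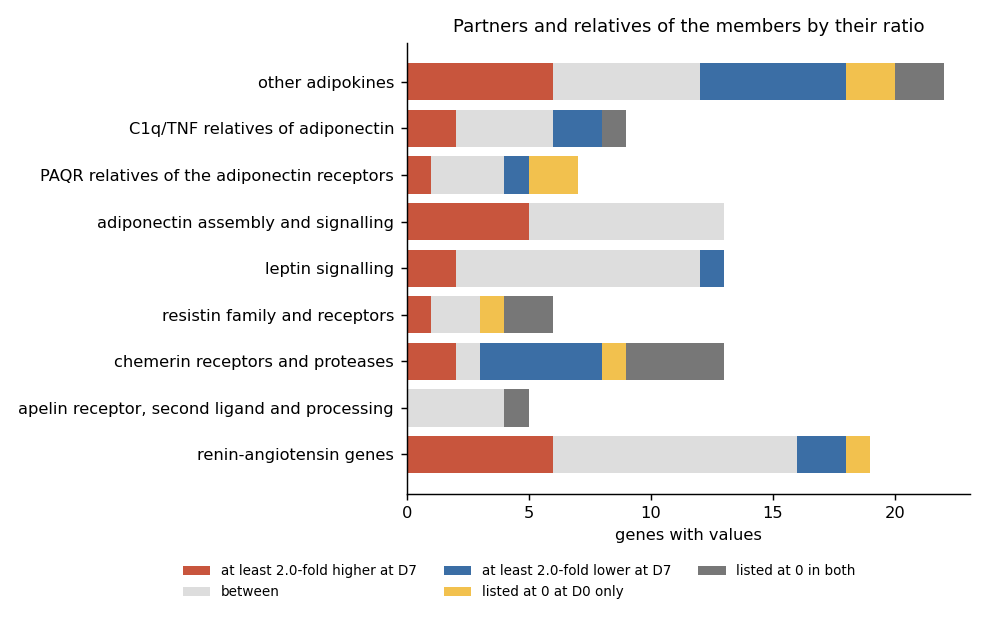
Number of genes with values in each list (horizontal axis) that were at least 2.0-fold higher at D7 (red), between (light grey), at least 2.0-fold lower (blue), listed at 0 at D0 only (yellow) or at 0 in both libraries (dark grey). Red segments hold 5 of 13 genes of adiponectin assembly and signalling and 6 of 19 renin-angiotensin genes, and the chemerin list holds 5 blue of 13. The leptin list holds 2 red and 1 blue of 13, and the apelin list 0 of either among 5. Of all genes above 0 in both libraries, 18.5% were higher and 13.2% lower.

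Markers of other cell types moved beside some of these values. Of 11 macrophage markers, 10 were at least 2.0-fold higher at D7, and Cd14 had a ratio of 1.06. Across all genes above 0 in both libraries, 18.5% were higher and 13.2% lower. The summed FPKM of the 11 was 156 at D0 and 584 at D7, of which Lyz2 alone had 111 and 286. The defining macrophage genes Adgre1 (listed as Emr1) and Csf1r had FPKM of 14.3 and 10.4 at D7 and of 1.40 and 2.63 at D0. Cmklr1, Tlr4, Ctss and Retnla are also known from macrophages, and the part of such cells in their values was not tested. The summed FPKM of 6 endothelial markers was 1.62 at D0 and 2.69 at D7. Of the muscle markers Myod1 and Ckm were listed at 0 in both libraries, and the sum of 45.4 at D0 and 1.78 at D7 was almost wholly Acta1. The erythroid marker Hba-a1 was listed at 0 in both. The 9 preadipocyte and fibroblast markers summed to 4255 FPKM at D0 against 2072.5 at D7, with 3 lower, 1 (Cd34) higher and 5 between.

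The genes nearest to each of the 9 were sought by the distance of log2 FPKM over the 2 libraries. Adipoq lay nearest to Gpd1 and Cfd, and Retn nearest to Adipoq and Gpd1. Agt lay nearest to Dgat2, which makes triglycerides, and Acsl1, which activates fatty acids, at distances of 0.32 and 0.50. Adipor2 lay nearest to Dlat and the growth hormone receptor gene Ghr, and Adipor1 to Fkbp8 and Vdac3. Rarres2 lay nearest to Rgs2 and Rarres1, Apln to Trem2 and 1190005I06Rik, and Lepr to Ankmy1 and Abcb4. Each distance rests on 2 values per gene.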

How the data were processed

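Per the paper's methods, the authors removed reads with adaptors, low quality or rRNA sequence and duplicate reads and used SOAP2 to align what was left to mm10 and to gene sequences. The deposited values are FPKM, computed by the authors. The submitters' processing notes name Bowtie2, and the annotation and the use of strand are not given in the sources used here. The values were used as deposited.

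No pseudocount was added. FPKM at D7 was divided by FPKM at D0 where both exceeded 0 (14986 genes), and genes counted as higher from a ratio of 2.0 upward and as lower from 0.5 downward, the threshold of the paper. Of 27324 rows, 3963 held no value. With 1 library per stage there is no test.

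Fragments were recovered from 649 single-exon genes of at least 600 bp, whose ends differed by at most 500 bp from the GENCODE M21 annotation. Taking 179 bp from the length at D0 and 182 bp at D7, the 93 and 99 low values (20 fragments at most) all came out whole, with a tolerance of 0.1. In FPKM, 1 fragment weighed 1.18 times more at D7. For genes with several exons the named transcript, or else the longest coding one, gave the length, so their fragments are approximate.

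The 9 genes, the partner lists and the cell type markers were chosen with earlier results of these data known. Named are the 9 genes, their receptors and ligands, list genes past 2.0-fold with an FPKM of at least 1, list genes that account for a count, and the 2 nearest genes of each. Other list genes were named after their values were seen, as was Lrrc61. They include Erp44, Prkaa1, the Appl genes, Jak2, Stat3, Stat5b, Ctsd, Ctsl, Cap1, Ror1, Furin, the Pcsk genes and Vegfa. Of the list genes, Asip and Hbb-bt matched no row with values. A few list genes are counted but not reported here by name. Scripts were tested on simulated data. Alternatives were pseudocounts of 0.1 and 1, a floor of 0.01, TPM, median centring, the upper quartile, summed rows, a filter at FPKM of 1, a 4.0-fold threshold and the longest transcript. The combination of the 0.01 floor and scaling to the median of a library was chosen after seeing the data. The software was matplotlib 3.10.9, scipy 1.17.1, pandas 2.3.3 and numpy 2.4.6 under Python 3.11.15.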

Additional observations from a re-analysis of the deposited data

How the results depend on the processing

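No paired analysis was possible because each stage has 1 library, and no replicate could be left out. Of the 9 genes, Adipoq, Retn, Rarres2, Apln, Agt and Adipor2 were at least 2.0-fold higher under every setting tried, the 4.0-fold threshold included. Lepr lost the call with pseudocounts of 0.1 and 1, under the filter and at 4.0-fold, and Lep entered it with those pseudocounts and with a floor of 0.01. Adipor1 turned direction only with the floor of 0.01 and division by the library median (0.842), which moved the median log2 ratio of expressed genes by -0.35. The ratio of Retn was between 1271 and 12655, that of Adipoq between 773 and 4403 and that of Agt between 124 and 174, each lowest with a pseudocount of 1. At 4.0-fold, 14 of the 107 list genes were higher and 5 lower. Under the other settings these counts stayed within 1.5 times. Depth limits Lepr, Ren1, Mas1, Aplnr and the D0 values of Retn, Adipoq and Lep, all at 5 fragments or fewer in at least 1 library. The same holds, among others, for Gpr1 and Ccrl2 at D7 and for Agtr1b, Cfd, Lcn2 and Plin1 at D0.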

Other observations

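Other secreted products of fat went in both directions, as did all genes above 0 in both libraries (18.5% higher, 13.2% lower). Of 22 other adipokine genes with values, 6 were at least 2.0-fold higher at D7, 6 lower, 6 between, 2 listed at 0 at D0 only and 2 in both libraries. Among the higher were adipsin (Cfd), which measured 0.313 FPKM at D0 against 579 at D7, lipocalin 2 (Lcn2), with 0.207 and 484, and the NAD-making enzyme Nampt, with 12.8 and 86.6. Cfd and Lcn2 rested on about 5 and 3 fragments at D0. Rbp4, the retinol carrier, was listed at 0 in the D0 library and reached 55.8 FPKM at D7, which was at least 392-fold higher against the limit of 3 fragments, with a low end of the exact interval of 318. Among the lower were the chemokine Ccl2, with 206 and 13.3, and the cytokine Il6, with 9.90 and 0.484. Fstl1, with a ratio of 0.496 (0.489 to 0.503), sat at the threshold. Vegfa had 50.7 and 67.0, a ratio of 1.32 (1.20 to 1.45).

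The relatives of adiponectin that share its C1q domain went in both directions, where 18.5% of all genes above 0 in both libraries were higher and 13.2% lower. Of 9 such genes, 2 were higher, 2 lower, 4 between and 1 (C1qtnf9) listed at 0 in both. C1qtnf12, found under the symbol Fam132a, measured 13.7 FPKM at D0 against 46.7 at D7, and C1qtnf1 had 8.30 and 25.8. C1qtnf3, the most abundant of them in both libraries, went from 306 to 93.7 FPKM, a ratio of 0.307 (0.295 to 0.319). The 9 genes summed to 438 FPKM at D0 against 246 at D7, so that at D0 their sum exceeded Adipoq (0.221) and at D7 lay below it (943).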
